A study of Mus musculus with 2 samples.

Results

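Brain endothelial cells line the vessels of the hippocampus, and here they were taken as the barcodes in which at least 4 of 10 endothelial genes (Cldn5, Flt1, Pecam1, Cdh5, Slco1a4, Ly6c1, Itm2a, Ly6a, Slco1c1 and Ptprb) and at most 1 of 8 genes of other cells were detected. The genes that led to exclusion mark microglia (Cx3cr1, Csf1r), oligodendrocytes (Mog), astrocytes (Aqp4), pericytes (Kcnj8, Pdgfrb), smooth muscle (Acta2) and fibroblasts (Dcn). The rule held for 4209 of 28586 barcodes, which are called gated barcodes below. They came from 2 single-cell RNA libraries of hippocampus dissociated with papain, both from male C57BL/6 mice given as 6 months old. The EMF_AuNPs library came from mice whose hippocampus had received gold nanoparticles and which spent 3 weeks between Helmholtz coils that produce an electromagnetic field. Control mice received saline. How many animals made up each library, which substrain they were and whether saline-treated animals spent time in the coils is not given. Since each group is a single library, there is no replicate to check a difference against and no test was made: every value describes these libraries, and every interval is a 95% interval that covers counting error only.

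Endothelial cells of the brain form the blood-brain barrier. Claudins and occludin seal the contacts between neighbouring cells, carriers such as the glucose transporter Slc2a1 move nutrients into the tissue, efflux pumps return foreign molecules to the blood, and few caveolae form, so little is carried across in vesicles. Wnt signals from the surrounding tissue keep this state, VEGF and Notch signals shape the vessels, and arteries, capillaries and veins express partly different genes.

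The gated barcodes carried the markers that chose them, with a median of 9 of the 10 genes detected in EMF_AuNPs barcodes and 8 in control barcodes. Cldn5, the main claudin of the barrier, was detected in 96.0% of gated EMF_AuNPs and 96.1% of gated control barcodes, against 19.9% and 16.8% of microglia in the same libraries, which should lack it. Cdh5, the cadherin of endothelial contacts, was detected in 47.0% and 38.2% of gated barcodes, against 1.35% and 0.796% of microglia. Microglia, like every comparison class, were taken only from barcodes with fewer than 4 gate genes. The rule therefore sets part of these contrasts on both sides. Median depth was 2241 UMIs and 1285 genes per gated EMF_AuNPs barcode and 1697 UMIs and 1008.5 genes per gated control barcode, while gated barcodes under 1000 UMIs made up 6.84% in EMF_AuNPs and 16.1% in control. At the threshold, 52 EMF_AuNPs and 221 control barcodes were gated with exactly 4 genes, and 133 and 400 barcodes with exactly 3 genes stayed out. The libraries had 38 barcodes in common, 2 of them gated in both.

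Not every gated barcode was endothelial alone. When the 4209 gated barcodes were clustered on all genes but those of the gate, 8 of 16 clusters held markers of another cell class at 10% or more of the level in that class and at least 4 times the median cluster. These mixed clusters were led by genes of choroid plexus epithelium (33 EMF_AuNPs and 88 control barcodes), astrocytes (36 and 155), oligodendrocytes (13 and 249), pericytes and smooth muscle (25 and 170), microglia (13 and 129), red blood cells (25 and 33), excitatory neurons (2 and 50) and ependymal cells (5 and 4). The choroid plexus-like barcodes had a median of 14911 UMIs in EMF_AuNPs and 13787 in control and held Ttr and other choroid plexus markers at 95.2% of the level in choroid plexus barcodes, so 18.6% of all gated UMIs in EMF_AuNPs and 15.1% in control came from them. In all, the mixed clusters held 152 gated EMF_AuNPs barcodes (16.8%) and 878 gated control barcodes (26.6%). This order depends on the rule. Cluster 0, with 590 EMF_AuNPs barcodes, held oligodendrocyte markers at 10.2% and astrocyte markers at 13.6% of class level. Clusters 6, 8 and 11, almost all control, held astrocyte markers at 21.4%, 12.6% and 15.2%. None reached 4 times the median cluster, so RNA of other cells remains without the mixed clusters. Leaving out gated barcodes with 3 or more markers of any comparison class kept 63 in EMF_AuNPs and 781 in control. With 5 random seeds these numbers ran between 140 and 159 in EMF_AuNPs and between 878 and 902 in control, although the borders between clusters moved (adjusted Rand index with the first seed 0.604 to 0.714). Leaving the mixed clusters out was an alternative chosen after the data were seen. The list members whose call it changes are given after the lists.

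The shares of barcodes in the gate did not give a stable order of the libraries. The gate took 907 of 7003 EMF_AuNPs barcodes, 12.95% (exact binomial interval 12.2 to 13.8), and 3302 of 21583 control barcodes, 15.3% (14.8 to 15.8), a difference of -2.35 points (-3.26 to -1.41). Before the exclusion rule, 22.1% of EMF_AuNPs and 21.5% of control barcodes had at least 4 of the 10 genes, a difference of 0.517 points (-0.587 to 1.64), and the rule then left out 41.3% of these in EMF_AuNPs and 29.0% in control. Of the barcodes it left out, 52.8% in EMF_AuNPs and 55.2% in control held Cx3cr1, and 40.4% and 25.1% held Mog. Barcodes with at least 1000 UMIs numbered 5621 in EMF_AuNPs and 17932 in control. Unthinned, the difference among them was -0.42 points (-1.48 to 0.67). After thinning each of them to 1000 UMIs, the gate took 20.5% in EMF_AuNPs and 17.8% in control. That is a difference of 2.75 points (1.57 to 3.96), so the sign turned. The exclusion rule then left out only 14.1% and 13.1% of those with at least 4 genes. Without the mixed clusters the shares were 10.8% in EMF_AuNPs and 11.2% in control. The highest doublet scores were marked up to the expected share, 5.6% of EMF_AuNPs and 17.3% of control barcodes. Of gated barcodes, 5.73% in EMF_AuNPs and 14.9% in control were marked. Of those left out by the exclusion rule, 20.5% and 50.7% were marked. Without the marked barcodes the difference in the gated share was -2.81 points (-3.77 to -1.83). The part of depth, of doublets and of free RNA of other cells in these shares was not tested beyond these settings.

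**Figure D1:**
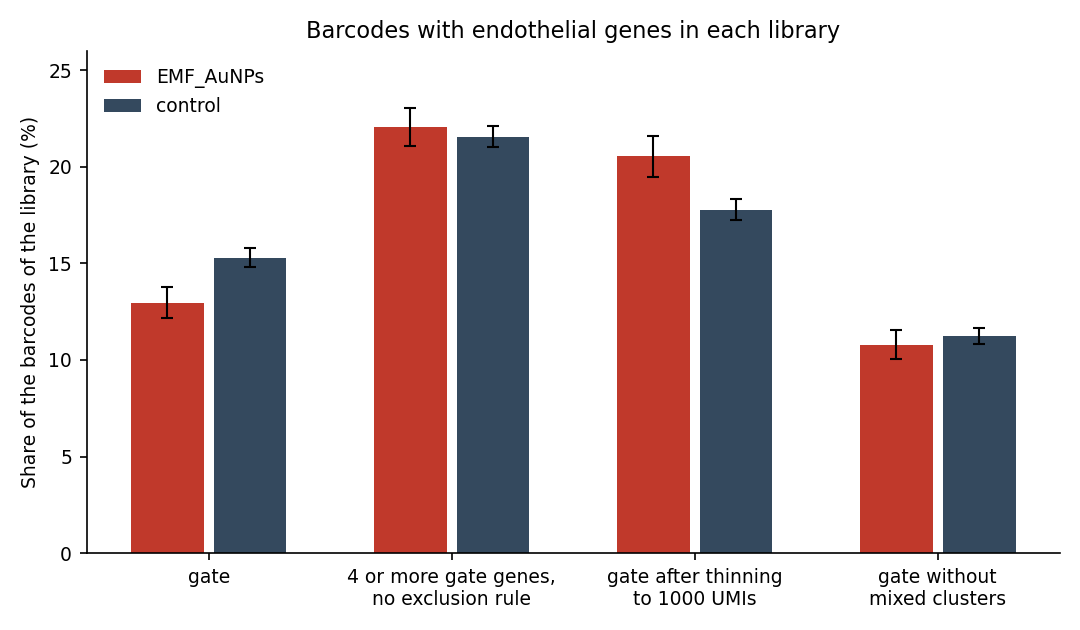
Share of the barcodes of each library (vertical axis, %) that passed the gate, that had 4 or more gate genes with no exclusion rule, that passed after thinning to 1000 UMIs (of barcodes with at least that many), and that passed and lay outside the mixed clusters. Bars are EMF_AuNPs (left) and control (right), with exact 95% binomial intervals of counting error. EMF_AuNPs is lower under the gate (12.95% against 15.3%) and higher after thinning (20.5% against 17.8%).

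Summed over the gated barcodes, markers of other cells were detected in both libraries, and some differed between them. Choroid plexus markers stood highest, at 19.5% in EMF_AuNPs and 16.2% in control of the level in choroid plexus barcodes, ahead of astrocyte markers at 11.9% and 15.3% and oligodendrocyte markers at 7.2% and 10.3% of the levels in their own classes. The microglia, oligodendrocyte, astrocyte, pericyte, smooth muscle and fibroblast lists include exclusion genes, of which a gated barcode held at most 1. The rule holds these sums down, while the choroid plexus list has no such gene, so this order is partly set by the rule. The 8 microglia markers, all detected, summed to 1238 counts per 1000000 UMIs (CPM) in EMF_AuNPs and 477 CPM in control gated barcodes, which is 3.95% and 1.79% of the level in microglia, and their log2 ratio was 1.37 (1.31 to 1.44), while it was 0.12 over the whole libraries. The 6 red blood cell markers in the matrix summed to 27173 CPM in EMF_AuNPs and 14273 CPM in control, a log2 ratio of 0.93 (1.65 over the libraries). The 8 excitatory neuron markers summed to 143 CPM in EMF_AuNPs and 326 CPM in control, a log2 ratio of -1.18 (-0.92 over the libraries), and the 8 smooth muscle markers to 154 and 281 CPM, a log2 ratio of -0.87, opposite in sign to that over the libraries (0.93). The choroid plexus markers were level (67707 CPM in EMF_AuNPs and 67936 CPM in control), as were those of astrocytes (3668 and 3870 CPM), oligodendrocytes (893 and 1035 CPM), pericytes (671 and 739 CPM), fibroblasts (406 and 319 CPM) and ependymal cells (188 and 191 CPM), all within 1.5-fold. No marker of these classes was at 0. Of 7 T or NK cell markers in the matrix, 4 were at 0 in each library. Their part in the differences below was not tested.

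The microglial gene P2ry12, a purine receptor named after its values were seen, differed more than the sum of the list, with 53.2 CPM in EMF_AuNPs and 10.6 CPM in control gated barcodes (log2 ratio 2.22, with 0.48 in microglia). That sum includes the exclusion genes Cx3cr1 and Csf1r, which the rule holds down in gated barcodes.

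The clusters also split by library. Cluster 0 held 590 of the 907 gated EMF_AuNPs barcodes and 63 control barcodes, and clusters 6, 8 and 11 held 711, 829 and 561 control barcodes against 14, 2 and 3 EMF_AuNPs barcodes. Ankrd37, Hbb-b2, P2ry12 and Adm were among the genes that led cluster 0, and Cldn11, a claudin of myelin-forming cells, was also among its first 10, so it received no name. Cluster 6, led by Ntm, Ttr and Aqp4, and cluster 8, led by Cxcl2 and Car4, received none either. Cluster 3 was venous-like, with Slc38a5, Nr2f2, Vwf and Vcam1 among its 50 leading genes, and held 8 EMF_AuNPs and 134 control barcodes. Clusters 1 and 11 were arterial-like (Gkn3, Bmx and Mgp), and of these cluster 1 held 129 EMF_AuNPs and 79 control barcodes. A cluster with Plvap, Esm1 and Gpihbp1, genes of fenestrated vessels, held 5 and 25. With 1 library per group, a cluster drawn mostly from a single library may reflect the library instead of a cell type, and the sizes are given as a description of these libraries.

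**Figure D2:**
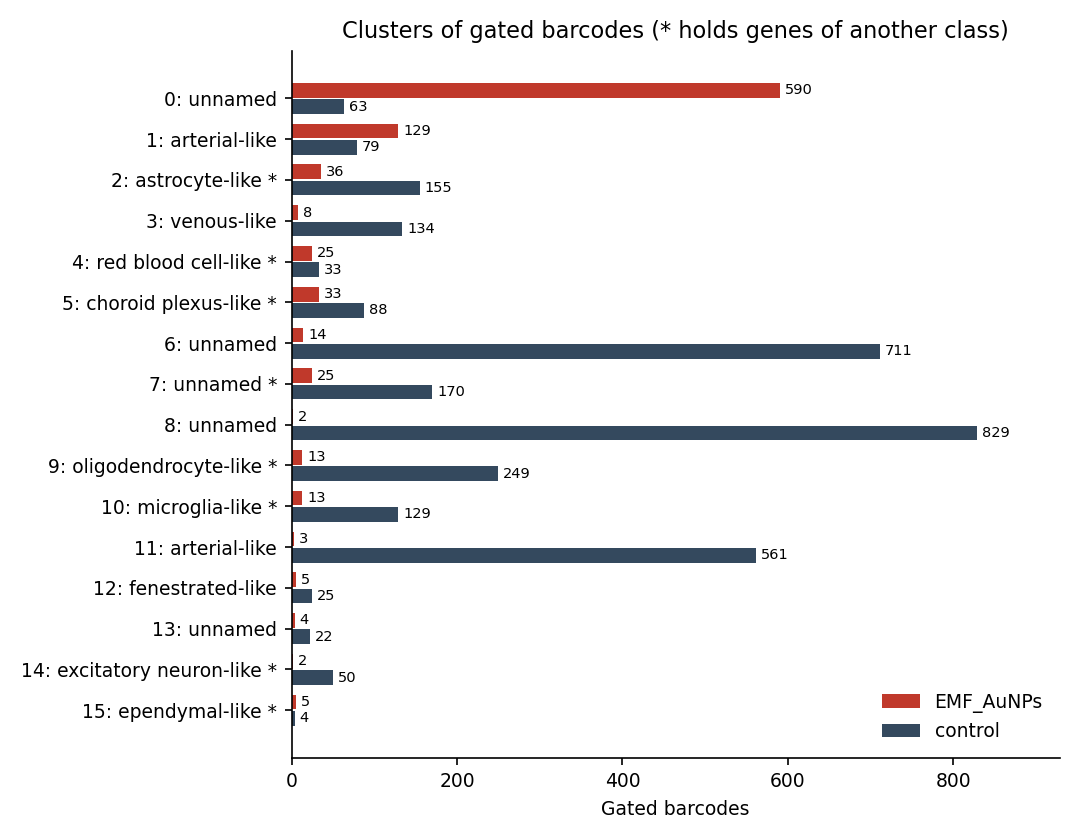
Number of gated barcodes (horizontal axis) in each of 16 clusters, EMF_AuNPs above control, with names given only where markers led; an asterisk marks the 8 clusters with genes of another class. Cluster 0 holds 590 EMF_AuNPs and 63 control barcodes, and clusters 6, 8 and 11 hold almost only control barcodes.

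Gene by gene, 6446 genes had at least 100 UMIs and a mean of at least 20 CPM in gated barcodes. A gene is written as higher or lower where its level in EMF_AuNPs was at least 1.5-fold that in control or the reverse, which is a rule of size. List members outside the naming rule are named because they passed this mark, after their values were seen. By this rule 553 genes were higher (8.58% of those measured) and 486 were lower (7.54%), with a median log2 ratio of 0.05. The split depended on the scaling: 399 were higher and 667 lower with TMM size factors, and 439 and 616 with median-of-ratios factors. Among the 5854 of these genes at 20% or more of their level in the highest other class and outside the gate, 7.93% were higher and 6.90% lower.

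Many of the largest ratios were shared with other cells of the same libraries. Yipf4, a membrane protein of the secretory pathway, had 99.3 CPM in EMF_AuNPs and 31.2 CPM in control gated barcodes, a log2 ratio of 1.64 (1.42 to 1.92), and its log2 ratio was 1.57 in microglia, 1.54 in oligodendrocytes and 1.63 in astrocytes. Cept1, a phospholipid-synthesis enzyme, had 46.8 and 15.3 CPM, a log2 ratio of 1.55 in gated barcodes and of 1.57, 1.44 and 1.60 in those classes. Wdfy1, an endosomal protein of Toll-like receptor signalling, had 55.7 CPM in EMF_AuNPs and 14.2 CPM in control, the highest ratio among these 5854 genes at 1.90 (1.61 to 2.34), with 0.96, 2.08 and 1.04 in microglia, oligodendrocytes and astrocytes. On the lower side stood Cbx1, a heterochromatin protein, at 52.1 CPM in EMF_AuNPs and 134 CPM in control (log2 ratio -1.34, with -1.28, -1.23 and -1.23 in the same classes), and the RNA helicase Ddx21 at 40.8 and 104 CPM (-1.33, with -1.34, -1.29 and -1.51). Syt1, the calcium sensor of synaptic vesicles, had the lowest ratio, 11.7 CPM against 46.8 CPM (-1.91), and its log2 ratio was -1.71 in barcodes outside the gate. Its part of the neuron marker ratio given above was not separated.

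Among the 12 highest, Cntn1 and Spint2 drew most UMIs from the mixed clusters. Cntn1, an adhesion molecule of neurons and glia, had 145 CPM in EMF_AuNPs and 55.6 CPM in control over all gated barcodes but 17.6 and 19.0 CPM without the mixed clusters, where its log2 ratio was -0.10. Spint2, a protease inhibitor of epithelia, had 259 UMIs in EMF_AuNPs and 288 in control over all gated barcodes and 16 in each without these clusters, too few for a ratio. The other 10 highest (Wdfy1, Ankrd37, Cav2, Yipf4, Cept1, Slc25a17, Dynlt1b, C1galt1c1, Tspan12 and Lypla1) stayed at least 1.5-fold higher without these clusters. The 12 lowest stayed at least 1.5-fold lower, but 1 of them, Aebp1, also drew most UMIs from the mixed clusters. Aebp1 had 39 UMIs in EMF_AuNPs and 310 in control over all gated barcodes. Without these clusters it had 7 and 56, so its ratio there rests on few UMIs.

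**Figure D3:**
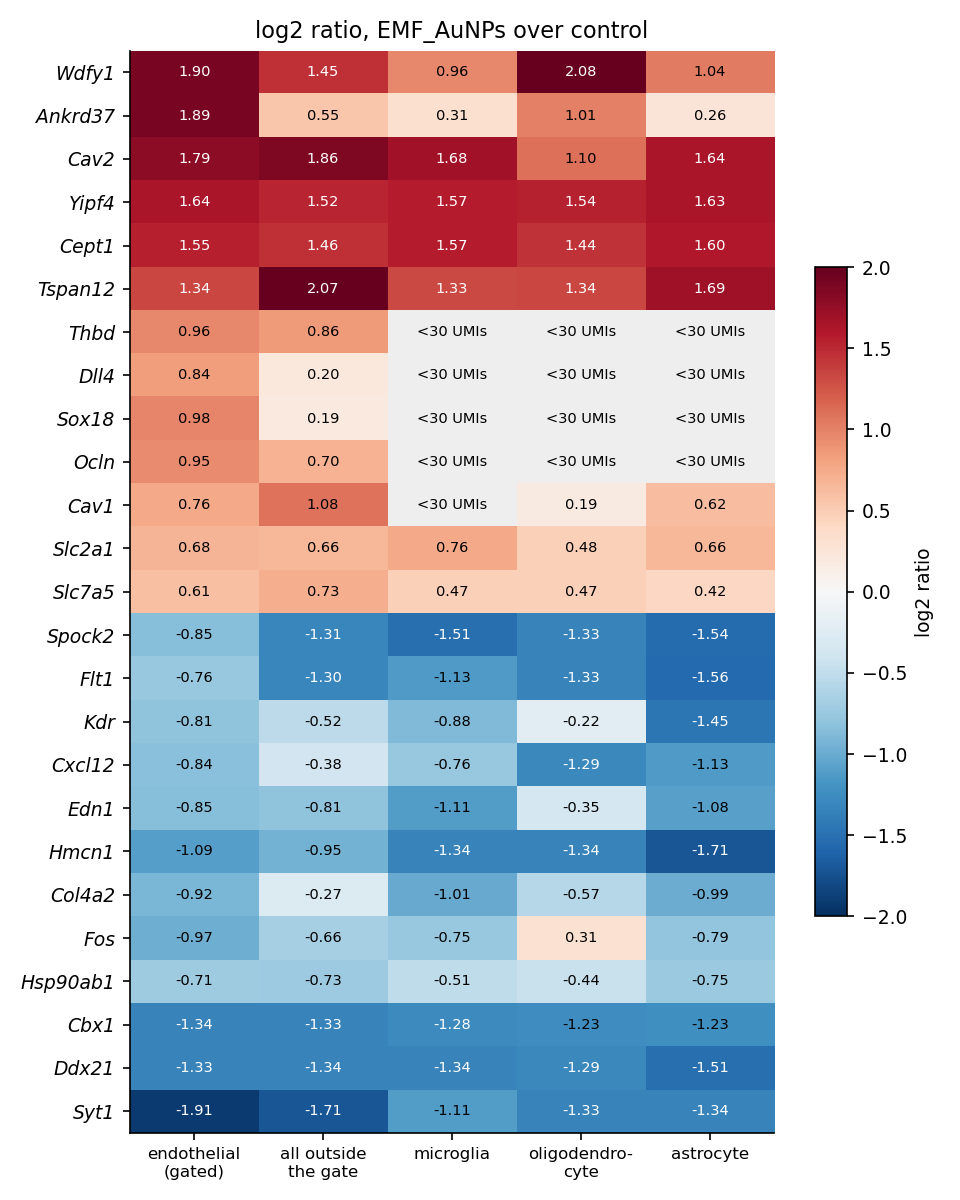
Log2 ratio of EMF_AuNPs over control (colour and printed value) for genes in rows, in gated endothelial barcodes, all barcodes with fewer than 4 gate genes, microglia, oligodendrocytes and astrocytes; grey cells had under 30 UMIs. Yipf4, Cept1, Cbx1 and Ddx21 have alike ratios in every column, while Ankrd37 has 1.89 in gated barcodes and 0.26 to 1.01 in the other columns.

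Genes that define the endothelium were mostly level. Of 109 genes with at least 50 CPM and at least 5-fold more in gated barcodes than in any other class, a set chosen after the data were seen, 9 were higher (8.26%, against 8.58% of all genes measured) and 7 lower (6.42%, against 7.54%), and their median was 0.06. Cldn5 had 5423 CPM in EMF_AuNPs and 4903 CPM in control (log2 ratio 0.15), and Cdh5 had 251 and 241 CPM (0.06). Pecam1, an adhesion molecule of endothelial contacts, had 328 and 366 CPM (-0.16). Levels of these and the other gate genes are partly set by the rule that chose the barcodes. Among genes that are not part of the rule, Tie1, an angiopoietin co-receptor, had 114 and 115 CPM (-0.01). Ctla2a, a protease inhibitor, had 1029 and 1006 CPM (0.03) and Foxq1, a forkhead factor, 408 and 413 CPM (-0.02). Of the gate genes 3 passed 1.5-fold: the organic anion carrier Slco1a4 at 1076 CPM in EMF_AuNPs and 695 CPM in control (0.63, interval 0.57 to 0.70), the membrane protein Itm2a at 2486 and 1544 CPM (0.69) and the VEGF receptor Flt1 at 1276 and 2163 CPM (-0.76, interval -0.81 to -0.71). Without the mixed clusters their log2 ratios were 0.59, 0.60 and -0.80.

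Of 22 nutrient and ion carriers, 5 were higher in EMF_AuNPs (22.7%, against 8.58% of all genes measured) and 0 lower (against 7.54%), with a list median of 0.18, against 0.05 over all genes. The same shares of all genes, 8.58% higher and 7.54% lower, stand behind each list count that follows. Slc2a1, the glucose transporter of the barrier (chromosome 4, mm10 position 119108711 to 119137983), had 1049 CPM (1011 to 1087) in EMF_AuNPs and 656 CPM (638 to 674) in control, a log2 ratio of 0.68 (0.61 to 0.74). Slc7a5 and Slc3a2, the paired chains of the large neutral amino acid transporter, had 404 and 564 CPM in EMF_AuNPs and 265 and 356 CPM in control, log2 ratios of 0.61 and 0.66. Slc16a4, a monocarboxylate carrier, had 44.3 and 25.6 CPM (0.77), and the sodium-potassium-chloride cotransporter Slc12a2 had 216 and 108 CPM (0.99), of which most UMIs lay in mixed clusters, since it had 66.7 and 32.3 CPM without them. Slc7a5 fell to 0.52 without the mixed clusters, and the list then had 4 higher genes and 1 lower. Outside the gate Slc2a1 had 97.4 CPM in EMF_AuNPs and 61.3 CPM in control, a log2 ratio of 0.66, close to that in gated barcodes. Of 6 efflux pumps 0 passed 1.5-fold in either direction: Abcb1a, P-glycoprotein, had 445 and 560 CPM (-0.33) and Abcg2 452 and 503 CPM (-0.15). Of 4 iron genes 0 passed, with the transferrin receptor Tfrc lowest at 227 and 324 CPM (-0.51, and -0.65 without the mixed clusters). Among 14 surface receptors, 2 were higher (14.3%), Insr, the insulin receptor (75.9 and 44.1 CPM, 0.77) and Plpp1, a lipid phosphatase (78.0 and 49.7 CPM, 0.64, and 0.40 without the mixed clusters). Bsg, the basigin that escorts monocarboxylate carriers, was the most abundant of them at 13699 CPM in EMF_AuNPs and 9738 CPM in control, a log2 ratio of 0.49 that did not reach the mark.

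Junction genes went both ways, with 3 of 17 higher (17.6%), 2 lower (11.8%) and a median of 0.08. Ocln, occludin, was detected at 113 CPM (101 to 126) in EMF_AuNPs and 57.9 CPM (52.7 to 63.5) in control, a log2 ratio of 0.95, and F11r, a junctional adhesion molecule, at 131 and 77.6 CPM (0.74). The catenin Ctnnb1 was the third higher gene (0.72), and it was also higher outside the gate (0.84). The scaffold Magi3 had 33.7 and 66.7 CPM (-0.96). Of 12 genes of caveolae and transcytosis, 2 were higher (16.7%) and 0 lower with a median of -0.07. These were Cav1, the main coat protein of caveolae, at 239 CPM in EMF_AuNPs and 141 CPM in control (0.76, interval 0.62 to 0.90), and Cav2, its partner, at 135 and 38.6 CPM (1.79, interval 1.59 to 2.03). The genes are neighbours on the plus strand of chromosome 6 (mm10 positions 17281185 to 17289115 for Cav2 and 17306335 to 17341452 for Cav1). Cav2 differed by about as much in microglia (1.68) and astrocytes (1.64) as in gated barcodes, and the other 10 genes of this list stayed within 1.5-fold. In all barcodes outside the gate the ratios of Cav1 and Cav2 were 1.08 and 1.86.

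**Figure D4:**
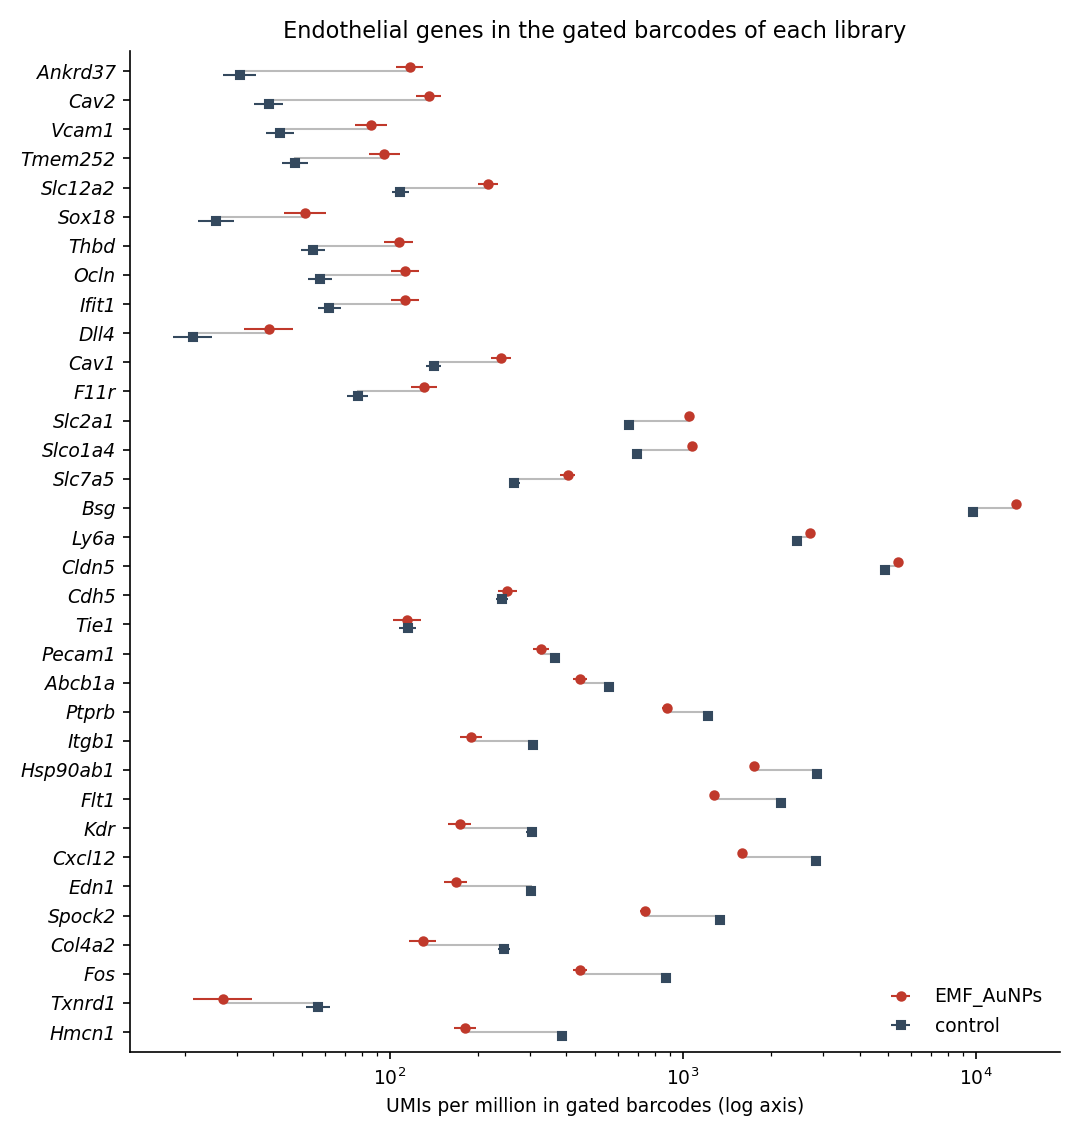
Level of named genes in gated barcodes (CPM, log axis), circles for EMF_AuNPs and squares for control, joined by a grey line, with exact 95% Poisson intervals of counting error; genes are ordered by ratio, the highest at the top. Cldn5, Cdh5, Tie1 and Pecam1 nearly coincide, Slc2a1, Ocln, Cav1 and Ankrd37 are higher in EMF_AuNPs, and Flt1, Kdr, Cxcl12, Spock2 and Hmcn1 are lower. Cldn5, Cdh5, Pecam1 and Flt1 are gate genes, whose levels are partly set by the rule.

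Both main VEGF receptors of blood vessels, Kdr and Flt1, were lower in EMF_AuNPs. Kdr, the main signalling receptor, had 173 CPM (158 to 189) in EMF_AuNPs and 304 CPM (292 to 317) in control, a log2 ratio of -0.81, and it was the 1 gene lower among 8 VEGF, angiopoietin and apelin genes, of which 0 were higher. Adm, a list member below the filter for measured genes, is not in this count and had a log2 ratio of 1.96. Flt1, the decoy receptor given above, stood at -0.76 and Flt4, the receptor of lymphatic growth factors, at -0.43 (43.3 and 58.7 CPM). Flt1 is a gate gene, so its level in gated barcodes is partly set by the rule. Outside the gate, where Flt1 had 13.2 CPM in EMF_AuNPs and 33.9 CPM in control, its log2 ratio was -1.30, and that of Kdr was -0.52. Of 15 Wnt genes, 2 were higher (13.3%) and 1 lower (6.67%) with a median of 0.17. Among them Tspan12, a co-activator of Norrin signals, had 45.8 CPM in EMF_AuNPs and 17.5 CPM in control (1.34, with 1.69 in astrocytes and 2.07 outside the gate), and Apcdd1, a Wnt inhibitor, 16.3 and 26.6 CPM (-0.67). Of 9 Notch genes 3 were higher (33.3%) and 0 lower, although their median was 0.01: the ligands Dll4 (38.7 and 21.2 CPM, 0.84) and Jag1 (31.2 and 16.1 CPM, 0.91) and the target Hey1 (61.4 and 36.7 CPM, 0.73). Outside the gate Hey1 and Jag1 had log2 ratios of 1.08 and 1.07. Of 12 BMP and TGF-beta genes 0 passed, with the target Id3 at 1141 and 945 CPM (0.27). Of 15 endothelial transcription factors 3 were higher (20%) and 0 lower: Sox18 (51.4 and 25.6 CPM, 0.98), Hhex (74.1 and 41.0 CPM, 0.84) and Sox7 (33.7 and 21.9 CPM, 0.60), while their relative Sox17 had 271 and 181 CPM (0.58).

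Vessel-zone genes gave no common direction. Among 10 capillary genes 2 were lower (20%) and 1, Slc7a5, higher. Spock2, a secreted proteoglycan, had 742 CPM (710 to 774) in EMF_AuNPs and 1338 CPM (1312 to 1364) in control, a log2 ratio of -0.85, and Cxcl12, a chemokine, 1590 CPM (1544 to 1637) in EMF_AuNPs and 2850 CPM (2812 to 2887) in control, which gives -0.84. Without the mixed clusters they stood at -0.90 each. Outside the gate the log2 ratio was -1.31 for Spock2 and -0.38 for Cxcl12. Of 12 arterial genes 2 were higher (16.7%) and 1 lower (Fbln2, a matrix protein, 18.8 and 31.8 CPM, -0.73), with a median of 0.02. Of 6 venous genes 2 were higher (33.3%) and 0 lower, Vcam1, a leukocyte adhesion molecule (86.2 and 42.2 CPM, 1.01), and Tmem252, a membrane protein (95.8 and 47.4 CPM, 1.00), while the venous carrier Slc38a5 had 92.6 and 85.0 CPM (0.12). Without the mixed clusters Vcam1 had 59.8 and 34.8 CPM (0.76). Barcodes with at least 2 arterial markers after thinning to 1000 UMIs made up 7.46% of 845 EMF_AuNPs and 7.36% of 2771 control gated barcodes, a difference of 0.0937 points (-1.80 to 2.27), against 0.482% and 0.178% of microglia. Those with at least 2 venous markers made up 4.97% and 4.80%, a difference of 0.171 points (-1.37 to 2.0), against 2.73% and 1.39% of microglia. Unthinned, the arterial shares were 17.6% and 13.6% and the venous shares 19.96% and 13.4%, so these differences moved with depth.

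Of 14 basement membrane and integrin genes 4 were lower in EMF_AuNPs (28.6%) and 0 higher, with the lowest list median of all, -0.23. The chains of collagen IV, Col4a1 and Col4a2, had 236 and 129 CPM in EMF_AuNPs and 361 and 245 CPM in control, log2 ratios of -0.61 and -0.92, and the integrins Itgb1 and Itga1 had 189 and 56.4 CPM against 307 and 87.7 CPM, log2 ratios of -0.69 and -0.63. Without the mixed clusters Itga1 was within 1.5-fold. The same genes had a median of 0.08 in all barcodes outside the gate and 0.36 in choroid plexus. In the other classes their median was negative too: -0.30 in microglia, -0.56 in oligodendrocytes, -0.16 in astrocytes, -0.29 in pericytes and -0.17 in smooth muscle. Hmcn1, a large extracellular matrix protein, was among the lowest endothelial genes with 181 CPM (165 to 197) in EMF_AuNPs and 386 CPM (373 to 400.5) in control, a log2 ratio of -1.09 (-1.24 to -0.96). Its log2 ratio outside the gate was -0.95. Of 8 haemostasis and vessel-tone genes 1 was higher and 1 lower: the thrombin receptor thrombomodulin, Thbd, at 107 and 54.7 CPM (0.96), and the vasoconstrictor endothelin, Edn1, at 168 and 302 CPM (-0.85). Edn1 had a log2 ratio of -0.81 outside the gate. Of 8 genes of leukocyte adhesion Vcam1 was higher and Cxcl12 lower, and Icam2 had 229 and 196 CPM (0.22).

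Among the 12 highest genes, the log2 ratio in gated barcodes exceeded that outside the gate most for Ankrd37, a target of hypoxia-inducible factors. Ankrd37 had 117 CPM (104 to 130) in EMF_AuNPs and 30.7 CPM (26.9 to 34.8) in control, a log2 ratio of 1.89 (1.68 to 2.17), and after thinning it was found in 12.5% of gated EMF_AuNPs and 3.14% of gated control barcodes. Its ratio was 0.55 outside the gate, 0.31 in microglia, 1.01 in oligodendrocytes and 0.26 in astrocytes, and 1.82 without the mixed clusters. It was the 1 higher gene of 12 hypoxia and glycolysis genes, of which 0 were lower, with a median of 0.25 inside and 0.24 outside the gate. The glycolytic enzymes Tpi1 (218 and 171 CPM, 0.35) and Pgam1 (197 and 149 CPM, 0.40) stayed under the mark. List members below the filter for measured genes are not in these counts, among them Hk2 with a log2 ratio of 0.84. Because Ankrd37 stood apart from the rest of its list, its promoter is shown, chr8:45999801-46000100 on the minus strand of GRCm38.p6, from RefSeq, with each match to the core of the hypoxia response element in capitals (ACGTG or, on the other strand, CACGT).

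Ankrd37 promoter: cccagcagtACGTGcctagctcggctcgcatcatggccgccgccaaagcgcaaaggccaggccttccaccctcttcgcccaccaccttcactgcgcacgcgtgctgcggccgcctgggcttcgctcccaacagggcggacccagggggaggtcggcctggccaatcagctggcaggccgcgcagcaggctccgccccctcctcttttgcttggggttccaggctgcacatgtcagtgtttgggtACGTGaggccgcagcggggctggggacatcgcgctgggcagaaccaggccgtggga

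This window of 300 bases held 2 matches, which read the same way. Of all 32851 promoter windows of this length 19.6% held at least 1 match, and of the 18 list members with a window 11 did, among them Ldha with 5 matches and a log2 ratio of 0.31. A match is a description of letters and not a bound site.

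Stress genes did not move as a group. Of 20 immediate early and shear-responsive genes 1 was higher, Ier5 (167 and 101 CPM, 0.72), and 2 were lower, Fos (445 and 874 CPM, -0.97) and Egr1 (164 and 250.5 CPM, -0.61), with a median of 0.04. The log2 ratio of Fos was -0.75 in microglia, 0.31 in oligodendrocytes and -0.79 in astrocytes. Of 13 heat shock proteins 1 was higher, Hspa1b (77.7 and 45.9 CPM, 0.75), and 1 lower, Hsp90ab1 (1747 and 2856 CPM, -0.71, with -0.73 outside the gate). Of 12 antioxidant genes 2 were higher (16.7%), catalase Cat (76.6 and 39.6 CPM, 0.93) and the mitochondrial dismutase Sod2 (111 and 72.8 CPM, 0.60), and 1 lower, the thioredoxin reductase Txnrd1 (27.0 and 56.7 CPM, -1.05). Their ratios outside the gate were 1.08, 0.89 and -0.90. Of 6 glucocorticoid-induced genes 0 passed, with Sgk1 at 151 and 107 CPM (0.48). Of 28 ribosomal protein genes 1 was higher, Rps2 (1171 and 751 CPM, 0.64), and 0 lower, with a median of -0.12. Of 13 sterol genes 2 were higher and 2 lower, with Cyp51 at 33.0 and 53.8 CPM (-0.69) and Sqle at 33.3 and 21.6 CPM (0.60).

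Of 10 genes of MHC class I presentation 0 passed 1.5-fold, with a list median of 0.27. The same genes had a median of 0.73 in barcodes outside the gate, 0.81 in microglia, 0.79 in oligodendrocytes and 0.69 in pericytes. Their median was 0.44 in astrocytes, 0.38 in choroid plexus and 0.08 in smooth muscle. H2-D1, a class I heavy chain, had 508 and 399 CPM (0.35) in gated barcodes, with 1.36 in microglia and 0.45 in astrocytes. Whether these ratios differ between cell types was not tested. Of 27 interferon genes 2 were higher, Ifit1 (112 and 62.1 CPM, 0.85) and Rtp4 (85.1 and 50.1 CPM, 0.75), and 2 lower, with a median of 0.24, against 0.44 for the same genes outside the gate.

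**Figure D5:**
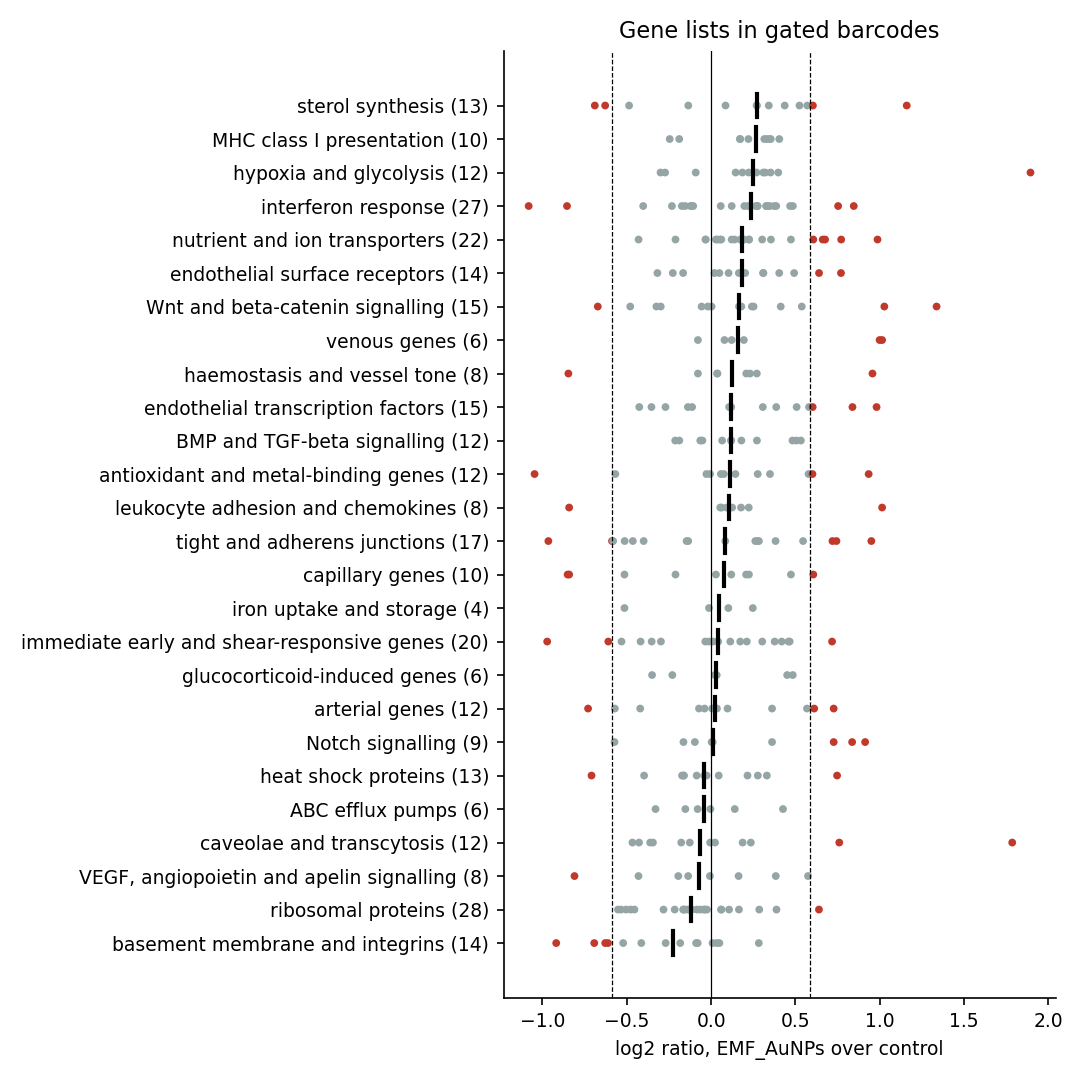
Log2 ratio of EMF_AuNPs over control in gated barcodes (horizontal axis) for the measured genes of 26 lists, whose number is in brackets; each dot is a gene, red past 1.5-fold (dashed lines), and the black bar is the list's median. Medians run from -0.23 for basement membrane and integrins to 0.27 for sterol synthesis and MHC class I presentation, and most genes lie inside the dashed lines.

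Without the mixed clusters 18 list members changed their call, in 13 of the 26 lists: 12 passed 1.5-fold only then and 6 passed it only with those clusters in. Calcrl, a receptor of adrenomedullin, became the 1 higher gene of the VEGF, angiopoietin and apelin list (log2 ratio 0.59, against 0.57 with all gated barcodes), and Tmem100, a membrane protein downstream of BMP signals, the 1 higher gene of the BMP and TGF-beta list (0.88, against 0.51). Magi1 (0.66), Prdx1 (0.70) and Sc5d (0.93) also became higher. Edn3, an endothelin (-0.61), Rbpj, the DNA-binding partner of Notch (-0.78), and the junction gene Cgnl1 (-0.71) became lower, as did Klf4 (-0.60), Sod1 (-0.68) and Tfrc. Atp1b1, a chain of the sodium-potassium pump, turned its sign, from 0.23 with all gated barcodes to -0.69 without the mixed clusters. Slc7a5, Plpp1, Eln (0.55), Itga1 (-0.57), Mllt4 (-0.58) and Idi1 (-0.47) came within 1.5-fold. The arterial list then had 1 higher and 2 lower genes and the Notch list 3 and 1. Several of these genes stood close to the mark under both settings.

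Most of the leading differences kept their sign at matched depth. In barcodes with 500 to 1499, 1500 to 2499 and 2500 or more UMIs, the log2 ratio of Spock2 was -1.41, -0.84 and -0.76, that of Flt1 -1.15, -0.93 and -0.54, that of Cxcl12 -1.18, -0.83 and -0.49, and that of Ankrd37 1.31, 2.07 and 2.15. Slc2a1 had 0.16, 0.74 and 0.77, so it was within 1.5-fold in the shallowest barcodes, and Ocln had 1.38, 0.59 and 1.09. Tmem252 changed sign, at -0.25 in the shallowest barcodes. Values within a cluster did not all follow the whole. Arterial-like cluster 1 held 129 EMF_AuNPs and 79 control barcodes, the control ones with a median of 2069 UMIs. The Ankrd37 ratio there thus rests on few control UMIs. In arterial-like cluster 1, Slc2a1 was at 0.96, Ocln at 1.44, Ankrd37 at 4.70 and Edn1 at -0.85, but Spock2 was at 0.19, Cxcl12 at 0.56 and Hmcn1 at 0.62, so the lower level of these 3 genes was not seen there, and Flt1 was at -0.24. The clusters were formed with these genes other than Flt1 and split the arterial-like barcodes by library, so these values are not independent of the clustering.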

How the data were processed

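UMI counts per gene and barcode were deposited by the authors for 2 10x libraries of mouse hippocampus, where the submitters' processing notes name Cell Ranger 3.0.2, STAR and the build mm10, for 24130 features (123 of them joint symbols of several genes, 0 mitochondrially encoded). Depth was 19544686 UMIs over 7003 barcodes in EMF_AuNPs and 51091452 over 21583 in control. The gate was applied to the raw counts, with no further filter and doublets kept as the rule does (leaving out the highest nearest-neighbour doublet scores, up to 0.8% per 1000 barcodes, was an alternative), and UMIs of gated barcodes were summed per library and divided by their total to give CPM. Log2 ratios set EMF_AuNPs over control after adding 1 CPM to each level. Their intervals are exact conditional binomial intervals without that addition, and other intervals are exact Poisson, Clopper-Pearson or, for differences, Newcombe. Comparison classes needed at least 4 of 8 markers, 2 more than any other class, and fewer than 4 gate genes. Clusters used 2000 variable genes, 20 principal components, 15 neighbours weighted by shared neighbours and Leiden resolution 0.8 (scanpy 1.11.5, igraph 0.11.9), with no integration. Size factors came from edgeR 4.0.16. Genes named are the 12 highest and 12 lowest of the 5854 genes described in the text, the 3 largest of each of 26 lists, the gate genes and the 20 most endothelial. Some genes under this rule are not reported here. Further list members were chosen after their values were seen. The gate and the lists were chosen with earlier results of these data known. Coordinates are from GENCODE M21 (GRCm38, the build mm10). The ratio and interval code was tested on simulated data.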

Additional observations from a re-analysis of the deposited data

Results flagged for a closer look

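Egr1, an immediate early transcription factor, went opposite ways in endothelial and oligodendrocyte barcodes. Its log2 ratio was -0.61 in gated barcodes (164 CPM in EMF_AuNPs and 250.5 CPM in control) and 0.83 in oligodendrocytes (36.8 CPM in EMF_AuNPs, from 118 UMIs, and 20.2 CPM in control, from 251 UMIs). With 1 library per group the difference between the cell types was not tested.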

How the results depend on the processing

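No paired analysis was possible because each group has 1 library, whose replicate number comes from accession order alone. The difference in the share of gated barcodes (-2.35 points) was -3.61 with no exclusion gene allowed, -0.42 among barcodes with 1000 or more UMIs, -0.45 without the mixed clusters, 0.52 with no exclusion rule and 2.75 on thinned barcodes. The settings without the mixed clusters, without the exclusion rule and without high doublet scores were chosen after seeing the data. The counts of 553 higher and 486 lower genes were 354 and 310 with 10 CPM added, 232 and 252 at a mean of 50 CPM or more, 1750 and 1472 with 1 UMI in each library as the only filter, and 119 and 223 after subtracting each gene's ratio outside the gate. Leaving out barcodes with 3 or more markers of another class, which kept 63 EMF_AuNPs and 781 control barcodes, left 2139 genes to measure, of which 258 were higher (12.1%) and 393 lower (18.4%), so fewer genes but larger shares than with all gated barcodes (8.58% and 7.54%). With only 63 EMF_AuNPs barcodes counting error is larger, and its part in these shares and in the sign changes of this setting was not tested. Allowing no exclusion gene gave 672 higher (10.8%) and 760 lower genes (12.2%). With those 63 and 781 barcodes Cyp51 (0.41), Sod2 (-0.30), Sox7 (-0.029), Plpp1 (-0.091), Hspa1b (-1.27), Dll4 (-0.029), Ifit1 (-0.26) and Spint2 (-1.87) changed sign. Cntn1 changed sign without the mixed clusters (-0.10) and on the thinned gate (-0.084). After subtracting the ratio outside the gate, signs changed for Morf4l1,Morf4l1-ps1 (0.12), Kif13b (0.46), Ddx21 (0.0057), Ddx23 (0.76), Spock2 (0.46), Flt1 (0.54), Hsp90ab1 (0.018), Egr1 (0.0047), Sod2 (-0.29), Sqle (-0.36), Slc7a5 (-0.13), Hey1 (-0.35), Rtp4 (-0.52), Cav1 (-0.32), Ifit1 (-0.24), Jag1 (-0.16), Cat (-0.15), Vcam1 (-0.22), Tspan12 (-0.74) and Cav2 (-0.076). That setting removes by construction whatever a gene shares with other barcodes, free endothelial RNA included. The difference in arterial-positive barcodes (0.09 points) was -0.011 with 3 or more markers and 4.04 unthinned, and in venous-positive barcodes (0.17 points) 6.51 unthinned. The arterial-like clusters' share differed by -4.83 points, by -0.032 at resolution 0.4 and by -8.73 on thinned barcodes. On thinned barcodes the astrocyte-like cluster differed by -4.93 points (against -0.72), the oligodendrocyte-like by -7.47 (-6.11) and the venous-like by -7.17 (-3.18), and at resolution 0.4 the microglia-like by -22.5 (-2.47), so cluster shares rest on these settings and describe the clustering, not the abundance of a cell type. The cause of the other changes was not tested. The planned removal of doublets at an automatic scrublet threshold gave no usable threshold and was not run. With 1 library per group, no setting measures the spread between animals. Over all gated barcodes a gene at 20 CPM rests on about 56.4 UMIs in EMF_AuNPs and 156 in control, and on fewer in a smaller set.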
